A study of Homo sapiens with 6 samples.

Results

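Integrin and laminin subunit genes were compared between 5637 bladder cancer cells that received a guide RNA against HRAS and cells that received a control guide. The set was defined by gene symbol: 18 integrin alpha genes (ITGA1 to ITGA11, ITGA2B, ITGAV, ITGAL, ITGAM, ITGAX, ITGAD and ITGAE), the 8 integrin beta genes ITGB1 to ITGB8, and 11 laminin genes (LAMA1 to LAMA5, LAMB1 to LAMB4, LAMC1 and LAMC3). These are 37 of the 60663 genes in the count table. The laminin-332 chains LAMA3 and LAMB3 and the subunits of the hemidesmosomal receptor (ITGA6 and ITGB4), 4 genes in all, are described apart from the other 33.

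5637 is an established human urothelial carcinoma line. Per the series description, both groups carried dCas13b-FTO, an RNA-guided and catalytically dead Cas13b joined to FTO, an enzyme that removes the m6A mark from RNA. The sample titles name dCas13b without FTO. The groups differed in the guide RNA, and RNA was taken 48 h after transfection, with 3 libraries per group. Whether the replicates are separate cultures is not stated, so every p-value measures the spread between these libraries, which may be technical.

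Integrins are cell surface receptors made of an alpha and a beta subunit, and the pairing sets which matrix protein is bound. Laminins are basement membrane proteins made of an alpha, a beta and a gamma chain that join inside the cell before secretion. In basal epithelial cells, urothelium included, laminin-332 is the matrix ligand to which the integrin of ITGA6 and ITGB4 anchors the keratin network at hemidesmosomes, while the integrin of ITGA3 and ITGB1 binds laminin-332 and the laminins that contain the LAMA5 chain.

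Library totals ran from 24968702 to 32283370 counts. The 10 markers of basal urothelial and epithelial cells were all measured, at a summed 7915 to 10153 CPM in the control libraries and 8012 to 9031 CPM in the HRAS guide libraries. CPM are counts scaled to a common library size, adjusted by TMM factors. HRAS mRNA itself was at 146 to 230 CPM in the control libraries and 167 to 200 CPM in the HRAS guide libraries (log2 fold change 0.01 ± 0.15, SE). The libraries also differed along the GC content of transcripts within both groups. Across genes, Spearman's rho between GC content and how far a library deviated from the average library was -0.62, 0.76 and -0.33 in control libraries 1 to 3, and 0.42, -0.67 and 0.11 in HRAS guide libraries 1 to 3. Log2 fold changes of all tested members are therefore plotted as deposited and after a correction for GC content and transcript length. In the text, corrected values are given for the genes set apart and for some other members, and the remaining values are as deposited.

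LAMB3, which encodes the laminin beta-3 chain, was the member with the clearest difference between the guides. It was lower in every HRAS guide library, and it passed the threshold, an adjusted p of 0.05, in edgeR once GC content and length were corrected for. Its partner chain LAMA3, and ITGA6 and ITGB4, did not pass in either fit. Before the correction 0 of the 29 tested members passed in edgeR, where 0.0101% of all tested genes did. After the correction 1 member passed, LAMB3, against 0.2% of all genes, and 28 did not.

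LAMB3 (ENSG00000196878) lies on GRCh38 chromosome 1, 209614870 to 209652466, on the minus strand. RefSeq (GRCh38.p14 table) lists several start sites for it. Below are the stretches just upstream of a pair of these starts, 5′ to 3′ on the gene's strand, trimmed where they would enter an annotated exon of LAMB3. They are shown because LAMB3 is the member that passed. Capitals mark the letters TGANTCA, the AP-1 motif bound by dimers of FOS and JUN family proteins, searched on both strands (its reverse complement is the same pattern).

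LAMB3, inner start, chr1:209651395-209651624: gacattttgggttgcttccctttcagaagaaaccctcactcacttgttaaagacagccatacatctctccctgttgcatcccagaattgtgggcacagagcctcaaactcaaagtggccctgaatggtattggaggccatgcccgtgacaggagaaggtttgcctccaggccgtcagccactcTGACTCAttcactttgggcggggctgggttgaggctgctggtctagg
LAMB3, outer start, chr1:209652467-209652675: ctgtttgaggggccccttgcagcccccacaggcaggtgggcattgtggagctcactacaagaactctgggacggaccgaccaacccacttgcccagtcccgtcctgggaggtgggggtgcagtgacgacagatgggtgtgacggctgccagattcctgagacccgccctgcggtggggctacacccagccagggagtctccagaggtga

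The motif stood 67 bases upstream of the inner start (position 209651374) and did not occur in the stretch printed for the outer start (position 209652425). LAMA3, whose chain joins that of LAMB3 in laminin-332, was the other member with the motif within 250 bases upstream of a listed start. It held 2 matches, 125 and 69 bases upstream of the start at position 23873020, shown with 10 bases on either side. This start lies inside the gene, which begins at 23689443. Both starts used for LAMB3 also lie inside their gene, whose 5′ end is at 209652466. The stretches printed for LAMB3 were trimmed at its exons, but the LAMA3 matches were not. Both matches lie within an annotated exon of LAMA3, which covers 180 of the 250 bases.

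LAMA3, distal match, chr18:23872885-23872911: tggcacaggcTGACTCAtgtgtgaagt
LAMA3, proximal match, chr18:23872941-23872967: cttcctcaccTGAGTCAggcaggcccg

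RefSeq starts were matched for 26 of the 37 members, with 33 starts between them, and 2 of these starts (6.06%) held the motif. Over all 35116 listed starts the share was 6.57%, and 0.4% held 2 or more matches. The GC box GGGCGG, also searched on both strands, was present at 17 of the 33 starts (51.52%) and at 42.64% of all starts. ITGB4 was not matched. A match is a run of letters and not a measured binding site.

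LAMB3 stood at 527, 639 and 536 CPM in control libraries 1 to 3, against 469, 430 and 462 CPM in libraries 1 to 3 with the HRAS guide. The lowest control library lay above the highest HRAS guide library. The means were 567 ± 62.4 and 454 ± 20.6 CPM (SD, n = 3), a ratio of 0.800. This is a log2 fold change of -0.32 ± 0.09 (SE, 95% interval -0.52 to -0.12). Its unadjusted p in edgeR was 0.00505, and adjusted over all genes it was 1.00, so it did not pass. In bulk RNA, fewer cells that express a gene and less RNA per cell cannot be told apart.

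After the correction LAMB3 stood at 552, 575 and 544 CPM with the control guide and at 461, 458 and 461 CPM with the HRAS guide. The groups again did not overlap, and the SD over control libraries went from 62.4 to 16.4 CPM. The corrected means were 557 ± 16.4 and 460 ± 1.44 CPM (SD, n = 3), a ratio of 0.825. With 11654, 12599 and 15038 counts in HRAS guide libraries 1 to 3, an SD of 1.44 CPM lies below counting error. It therefore understates the uncertainty, and the correction was fitted to these same libraries. After correction the log2 fold change was -0.28 ± 0.04 (SE, 95% interval -0.37 to -0.18), and its adjusted p in edgeR was 0.0276.

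The call depended on the libraries in the fit. With the correction it held without control library 1 (edgeR adjusted p = 0.0226) and without control library 2 (0.00206). It was lost without control library 3 (0.180), and without HRAS guide library 1 (0.252), 2 (0.247) or 3 (0.334), while the corrected log2 fold change stayed between -0.29 and -0.25. DESeq2 without the correction gave -0.33 and an adjusted p of 0.923, and it called 0 members against 0.126% of all genes. Limma-voom also called 0 members, against 0.00504% of all genes. At an unadjusted p under 0.05, 2 members (LAMB3 and ITGAE) were found by edgeR, which placed 3.34% of all genes there, and 1 (LAMB3) by DESeq2, which placed 2.41% there. The same 2 members were found by limma-voom (3.44% of all genes) and by edgeR after the correction (5.81%).

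A fit with the sign of each library's GC trend as a covariate gave LAMB3 -0.38 ± 0.05 and an adjusted p of 0.00211 in edgeR, where 0.408% of all genes passed. At an unadjusted p under 0.05 this fit held 7 members, where it held 11.3% of all genes. LAMB3, ITGA3 and ITGB4, each with a GC content of 59.2% or more, were negative there, and ITGA1, ITGA6, ITGAV and ITGAE, each of 48.8% or less, were positive. Control libraries 1 and 3 and HRAS guide library 2 had a negative trend and the others a positive one. Within the libraries of negative trend the difference in mean log2 CPM was -0.30, and within those of positive trend -0.46. After the correction these differences were -0.26 and -0.32. LAMB3 was thus lower with the HRAS guide inside each set, with a single library on a side in each. In the positive set rho was 0.76 in control library 2 against 0.42 and 0.11 in HRAS guide libraries 1 and 3. In the negative set it was -0.62 and -0.33 in control libraries 1 and 3 against -0.67 in HRAS guide library 2. The HRAS guide side thus had the lower rho in both sets, so the sets and the covariate fit do not remove the trend. Whether the GC trend contributes to the size of its difference was not tested further.

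LAMA3, the alpha-3 chain (ENSG00000053747, chromosome 18, 23689443 to 23956222, plus strand), stood at 209, 157 and 189 CPM with the control guide and at 173, 190 and 174 CPM with the HRAS guide. The groups overlapped, and control library 2 was the lowest of all. The log2 fold change was -0.05 ± 0.11 (95% interval -0.29 to 0.19), and -0.05 ± 0.05 (-0.17 to 0.06) after the correction. The corrected interval of LAMB3, -0.37 to -0.18, missed that of LAMA3 by a small margin. As deposited the intervals overlapped (LAMB3 -0.52 to -0.12). Intervals of single genes are not a test between them, and the ratio of LAMB3 to LAMA3 is given below.

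ITGA6, the laminin-binding alpha-6 subunit (ENSG00000091409, chromosome 2, 172427354 to 172506282, plus strand), stood at 637, 386 and 565 CPM with the control guide and at 480, 598 and 522 CPM with the HRAS guide. Control library 1 was the highest of the 6 libraries and control library 2 the lowest, so the spread inside the control group covered the whole HRAS guide group. The log2 fold change was 0.01 ± 0.16 (95% interval -0.35 to 0.37) and -0.0058 ± 0.09 (-0.20 to 0.18) after the correction. Exons of ITGA6 share 351 bp with genes on the opposite strand, ITGA6-AS1 among them, and the strandedness of the counts is not known.

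ITGB4, the beta-4 subunit whose long cytoplasmic tail binds plectin (ENSG00000132470, chromosome 17, 75721328 to 75757818, plus strand), stood at 1930, 2413 and 2073 CPM with the control guide and at 2090, 1843 and 1996 CPM with the HRAS guide. In contrast to ITGA6, control library 2 was the highest. The log2 fold change was -0.11 ± 0.09 (95% interval -0.31 to 0.09), and -0.08 ± 0.05 (-0.18 to 0.02) after the correction. Corrected values of 2197, 1996 and 2138 CPM against 1967, 2044 and 1969 CPM still overlapped. The ratio of ITGA6 to ITGB4 ran from 0.160 in control library 2 to 0.330 in control library 1. It was 0.230, 0.324 and 0.262 in the HRAS guide libraries, and did not differ beyond its spread (two-sided exact permutation p = 0.90). The genes differ in GC content (41.5% and 62.9%), so their ratio does not cancel a GC trend. On corrected CPM it was 0.267, 0.224 and 0.257 against 0.252, 0.272 and 0.266 (exact permutation p = 0.50).

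**Figure D1:**
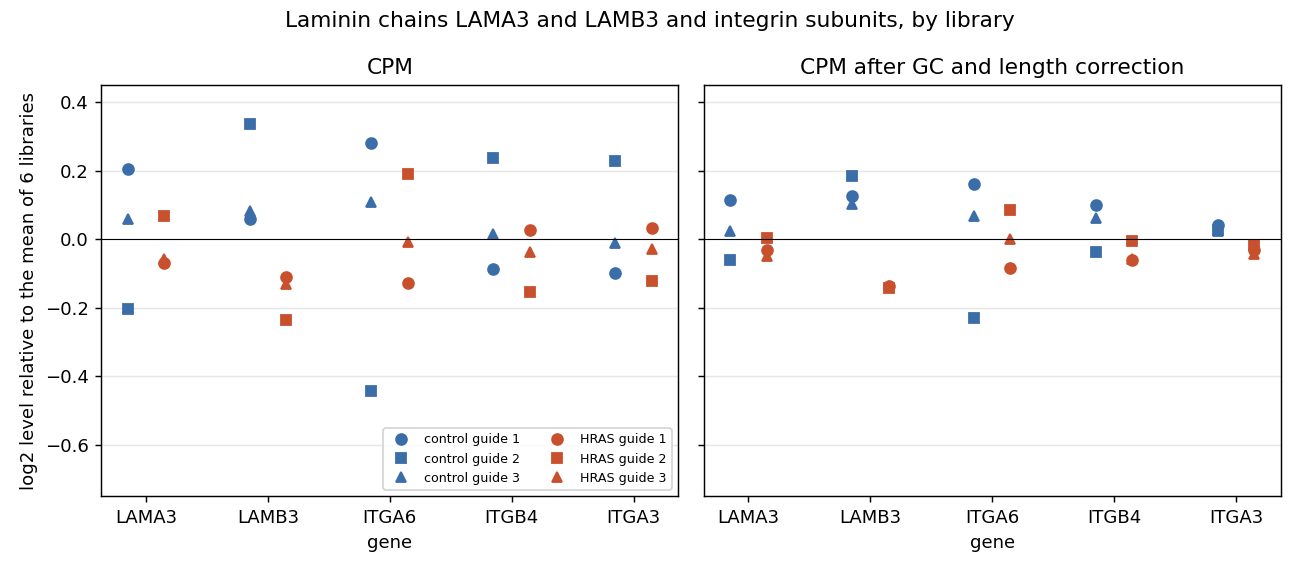
Log2 level of the 4 genes set apart and of ITGA3 in each library, relative to the mean of the 6 libraries (y axis), as CPM (left) and after the GC and length correction (right); blue points are control guide libraries and red points HRAS guide libraries, with a symbol for each replicate. LAMB3 is the gene whose red points all lie below its blue points in both panels, while ITGA6 spans the widest range and overlaps between groups.

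Ratios of 2 genes within a library cancel scaling by library size, and they carry less of a GC trend where the genes have similar GC content. The pairs were chosen after values were seen. ITGA3 (GC content 59.2%) was the member of at least 20 CPM nearest in GC content to LAMB3 (59.5%). The ratio of LAMB3 to ITGA3 was 0.269, 0.260 and 0.258 in control libraries 1 to 3 and 0.219, 0.224 and 0.225 in HRAS guide libraries 1 to 3. The means of 0.262 ± 0.006 and 0.222 ± 0.003 (SD, n = 3) differed by -0.24 on the log2 scale. This separation gave a two-sided exact permutation p of 0.10, the smallest that 3 against 3 libraries allow, and 0.157 with Benjamini-Hochberg adjustment over 36 tests, 18 ratios each computed on CPM and on corrected CPM.

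**Figure D2:**
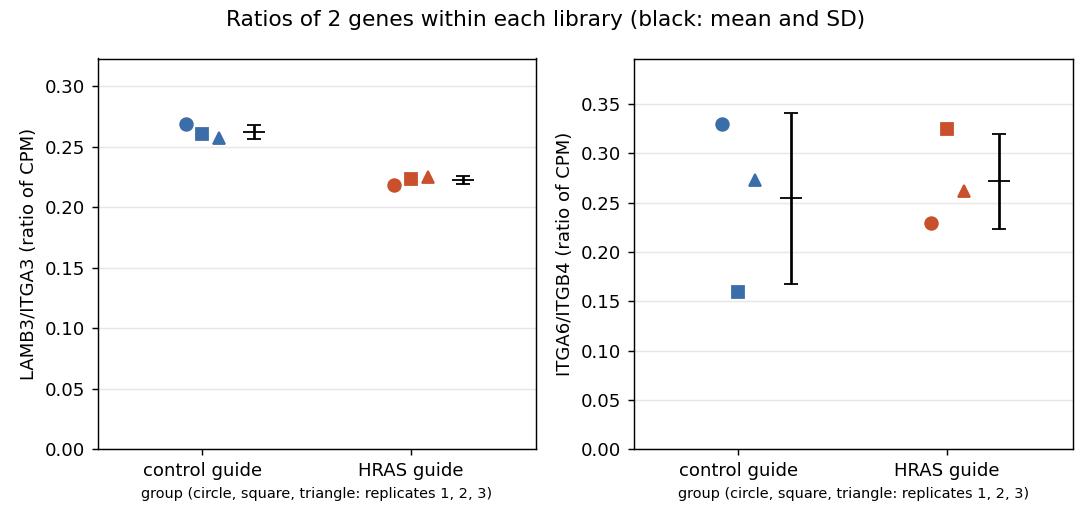
Ratio of LAMB3 to ITGA3 (left) and of ITGA6 to ITGB4 (right) in each library, computed from CPM, with the group mean and SD in black; both y axes start at 0. The LAMB3 to ITGA3 ratio was 0.258 or more in the control libraries and 0.225 or less in the HRAS guide libraries, while the ITGA6 to ITGB4 ratios overlapped. LAMB3 and ITGA3 have similar GC contents, but ITGA6 (41.5%) and ITGB4 (62.9%) do not.

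The ratio of LAMB3 to LAMA3 overlapped between groups as deposited (2.52, 4.06 and 2.83 against 2.71, 2.26 and 2.65, exact permutation p = 0.40). On corrected values it did not overlap, at 2.81, 3.31 and 2.95 against 2.60, 2.52 and 2.63 (exact permutation p = 0.10). Against each of the other 17 members of at least 20 CPM, the LAMB3 ratio was lower in all HRAS guide libraries than in any control library for 8 as deposited and for 15 after the correction. All 17 ratios share LAMB3, so they are not independent of each other. LAMB3 alone already separated the groups on CPM and on corrected CPM, so these counts add no support to its difference. The share of such separation among ratios of other genes was not computed.

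The nearest tested gene to LAMB3 is CAMK1G, a calcium/calmodulin-dependent kinase gene on the opposite strand (chromosome 1, 209583717 to 209613938). The 3′ ends of the genes face each other across 931 bp. CAMK1G fell from a mean of 21.1 ± 1.24 CPM to 5.63 ± 0.50 CPM (SD, n = 3), and it passed in edgeR (log2 fold change -1.90 ± 0.12, adjusted p = 0.000333). Its drop was 15.4 CPM, while the drop of LAMB3 was 114 CPM. G0S2, a lipase inhibitor gene 22953 bp from LAMB3 on the other side, had a log2 fold change of -0.13 ± 0.14 and did not pass. Whether the differences of LAMB3 and CAMK1G are independent was not tested.

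Among the other laminin alpha chains, LAMA5, the chain of laminin-511 and laminin-521, stood at 1857, 2368 and 2029 CPM with the control guide and at 2215, 1907 and 2127 CPM with the HRAS guide. Means of 2084 ± 260 and 2083 ± 158 CPM (SD, n = 3) gave a log2 fold change of -0.0011 ± 0.10 (95% interval -0.21 to 0.21). LAMA1, an embryonic alpha chain, was at 154, 134 and 136 CPM against 130, 144 and 136 CPM (-0.05 ± 0.09), and 1754 bp of its exons overlap genes on the opposite strand. LAMA4, a chain of vascular basement membranes, was at 43.0, 36.5 and 39.8 CPM against 40.9, 41.0 and 39.6 CPM (0.03 ± 0.10). All 3 genes overlapped between groups and did not pass.

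The beta and gamma chains that pair with these alpha chains did not pass in edgeR either. LAMB1, the beta chain of laminin-111 and laminin-511, was at 422, 348 and 407 CPM against 387, 397 and 380 CPM (log2 fold change -0.01 ± 0.09, 95% interval -0.21 to 0.18). LAMC1, the gamma chain of most laminins, was at 594, 432 and 528 CPM against 483, 557 and 512 CPM (-0.0008 ± 0.11, -0.25 to 0.25). LAMB2, the beta chain of laminin-521, was at 130, 166 and 142 CPM against 156, 147 and 150 CPM (0.05 ± 0.10). After the correction LAMB2 stood at 144, 142 and 146 CPM against 149, 159 and 148 CPM. Its groups then no longer overlapped, but at 0.08 ± 0.05 (95% interval -0.03 to 0.18) it did not pass (edgeR adjusted p = 0.912). LAMB2 and LAMB3 have similar GC contents (60.3% and 59.5%). Their ratio, LAMB3 over LAMB2, was 4.06, 3.85 and 3.78 with the control guide against 3.00, 2.93 and 3.09 with the guide to HRAS. The exact permutation p was 0.10, the smallest possible here, and 0.157 with the Benjamini-Hochberg adjustment. LAMB3 alone already separated the groups, so this ratio adds no support to its difference.

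**Figure D3:**
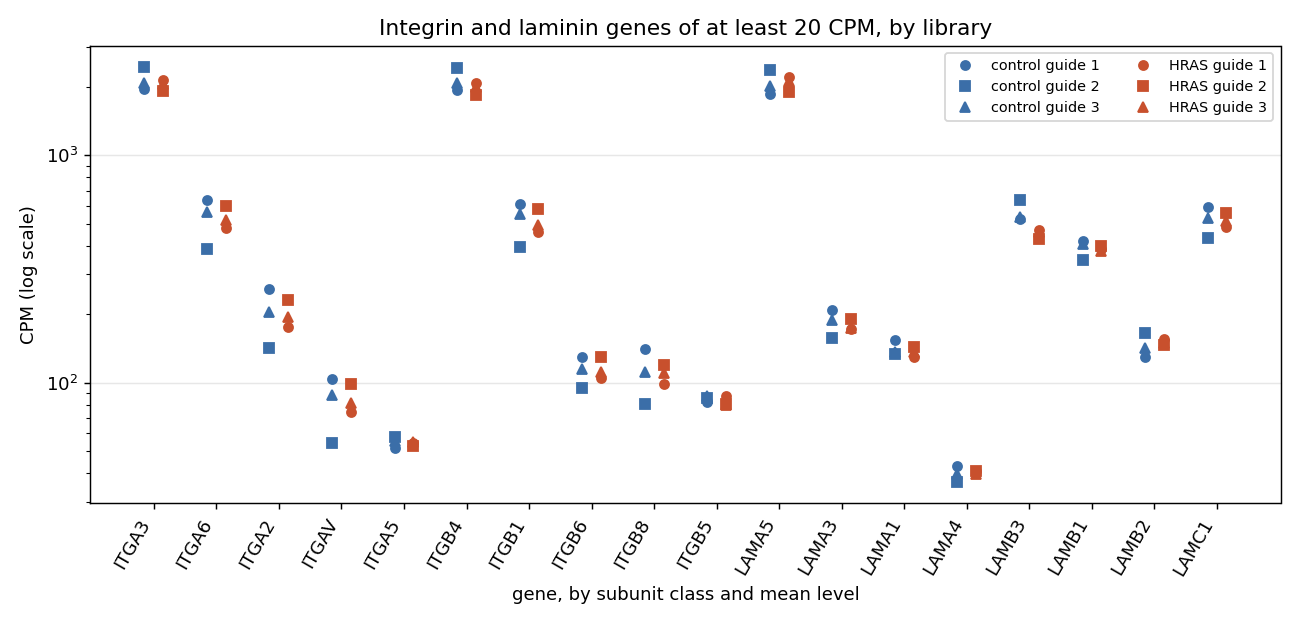
CPM of the 18 members of at least 20 CPM in each library (log y axis), ordered by subunit class and mean level; blue points are control guide libraries and red points HRAS guide libraries. ITGA3, ITGB4 and LAMA5 stand highest, and genes such as ITGA6, ITGA2 and ITGAV show their lowest point in control library 2.

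Of the other integrin alpha subunits, ITGA3, the main alpha partner of ITGB1 for laminin-332 and LAMA5 laminins, stood at 1958, 2455 and 2079 CPM with the control guide and at 2144, 1925 and 2052 CPM with the HRAS guide. The log2 fold change was -0.08 ± 0.09. After the correction it stood at 2155, 2133 and 2129 CPM against 2051, 2071 and 2035 CPM. All corrected HRAS guide values were then lower, by 0.06 ± 0.04 on the log2 scale (95% interval -0.14 to 0.02), and the edgeR adjusted p was 0.916.

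ITGA2, the collagen-binding alpha-2 subunit, stood at 258, 141 and 204 CPM against 176, 230 and 195 CPM (log2 fold change -0.0073 ± 0.19, 95% interval -0.42 to 0.41). ITGAV, the alpha subunit of the integrins that bind vitronectin and latent TGF-beta, stood at 104, 54.1 and 88.6 CPM against 74.3, 98.9 and 81.2 CPM (0.04 ± 0.21, -0.42 to 0.50). In both genes control library 1 was the highest and control library 2 the lowest of the 6, with control library 1 at 1.83 and 1.93 times control library 2. ITGA5, the fibronectin receptor subunit, was steadier, at 51.8, 57.6 and 55.6 CPM against 54.1, 52.8 and 54.9 CPM (-0.03 ± 0.09). None of these 3 passed, and their groups overlapped.

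ITGB1, the beta subunit shared by the receptors for laminin, collagen and fibronectin, stood at 611, 394 and 555 CPM with the control guide and at 459, 582 and 496 CPM with the HRAS guide. The groups overlapped, and the log2 fold change was -0.02 ± 0.15 (95% interval -0.36 to 0.31). The beta partners of ITGAV were also measured. ITGB5 was at 82.0, 85.5 and 87.3 CPM against 87.1, 80.9 and 79.6 CPM (-0.04 ± 0.09). ITGB6, an epithelial activator of TGF-beta, was at 129, 95.04 and 115 CPM against 105, 130 and 111 CPM (0.03 ± 0.13), and ITGB8 was at 140, 80.2 and 111 CPM against 98.5, 120 and 110 CPM (-0.01 ± 0.17). Of the 4687 bp of merged exons of ITGB6, 966 bp overlap another gene on the same strand. Exon overlaps are not listed here for every member that has them. No beta subunit passed in any of the fits named so far.

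**Figure D4:**
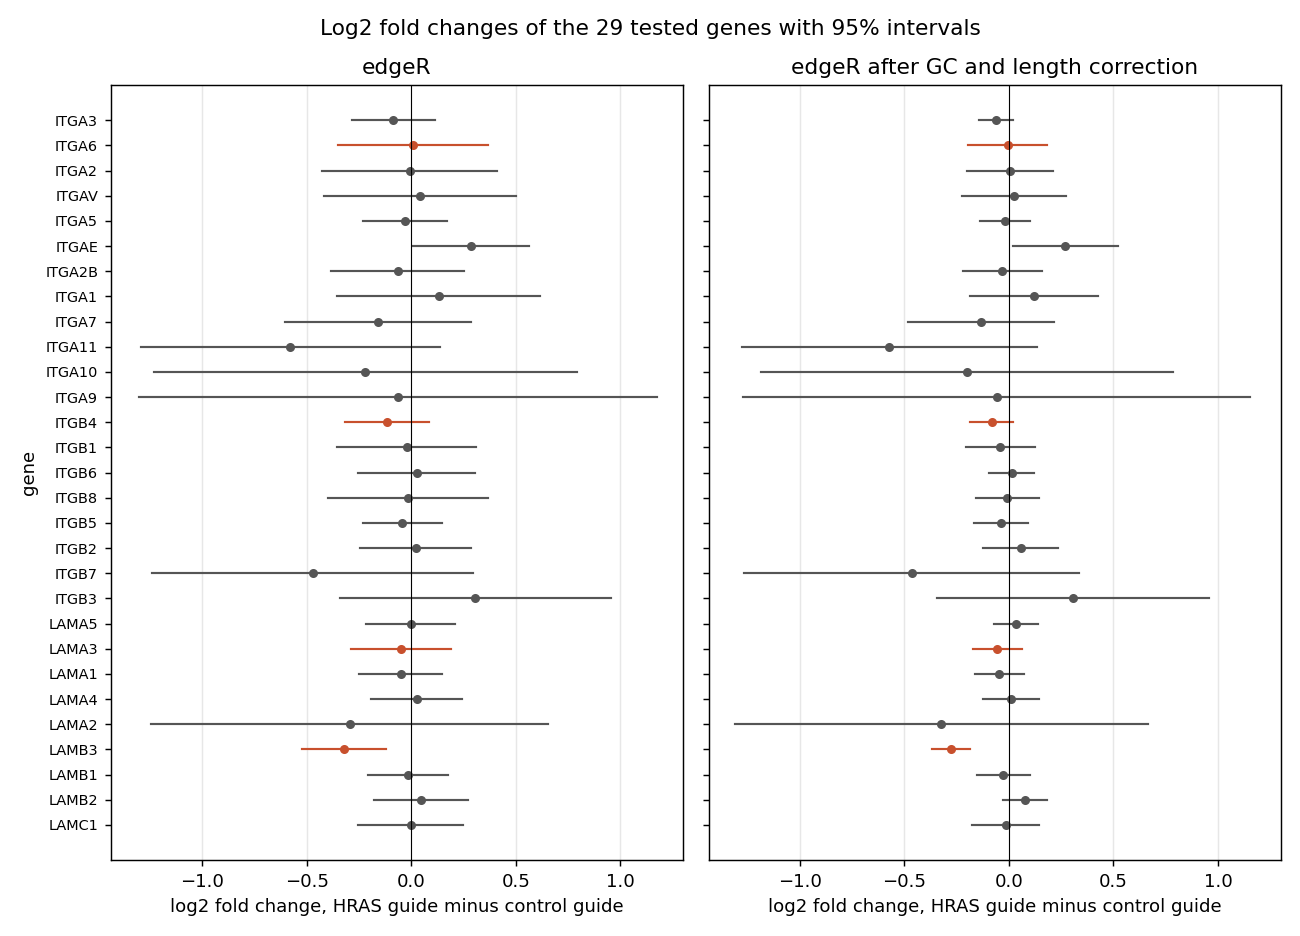
Log2 fold changes (x axis, HRAS guide minus control guide) of the 29 tested members with 95% intervals, from edgeR on the deposited counts (left) and after the GC and length correction (right); red marks the 4 genes set apart. The intervals narrow on the right for genes of at least 20 CPM, and those of LAMB3 and, by a small margin, ITGAE lie to 1 side of 0 in both panels.

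Over all 29 tested members, 20 log2 fold changes were negative and 9 positive in edgeR, with a median of -0.02 (range -0.58 to 0.31). Over all tested genes 50.5% were negative and the median was -0.0014. After the correction 19 were negative, where 50.1% of all genes were, with a median of -0.03. The groups did not overlap for 3 members (10.3%) in CPM, ITGA11 and LAMB3 lower and ITGAE higher, where 8.81% of all genes did not overlap and 4% were lower. On corrected CPM they did not overlap for 4 members (13.8%), ITGA3, ITGA11 and LAMB3 lower and LAMB2 higher, where 12.3% of all genes did not and 6.29% were lower. The 4 genes set apart had a median of -0.08 (3 negative), and the other 25 tested members one of -0.01.

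The 11 tested members under 20 CPM were scarce in these cells. ITGB2, the beta subunit of leukocyte integrins, was the most abundant at 16.6, 22.03 and 20.01 CPM against 19.7, 19.7 and 20.1 CPM (log2 fold change 0.02 ± 0.12). ITGB2 made up most of the summed 22.8 to 28.3 CPM of the 10 leukocyte markers in the control libraries and 25.4 to 26.5 CPM in the HRAS guide libraries. Of the myeloid markers in that list, CD14 was at 2.60, 3.62 and 3.44 CPM against 4.79, 4.34 and 3.13 CPM, and CSF1R at 3.53, 2.46 and 2.65 CPM against 1.77, 2.32 and 2.03 CPM. CD14 overlapped between groups (log2 fold change 0.34 ± 0.20), and CSF1R was lower in all HRAS guide libraries (-0.49 ± 0.20) but did not pass. The other 7 markers, among them PTPRC, were at means of at most 0.128 CPM, with CD3D and MS4A1 at 0 counts in every library. ITGA2B, the platelet alpha-IIb subunit, was at a mean of 12.1 ± 2.23 against 11.6 ± 0.76 CPM (SD, n = 3), while the platelet genes PF4 and GP9 were at 0. The platelet gene GP1BA was at 4.50, 4.67 and 4.70 CPM against 3.90, 3.72 and 3.84 CPM, lower in all HRAS guide libraries, and at -0.27 ± 0.13 it did not pass. The 5 platelet markers, ITGA2B included, summed to 15.3 to 19.4 CPM in the control libraries and 14.5 to 16.3 CPM in the HRAS guide libraries. The 8 fibroblast and muscle markers summed to 165 to 224 CPM in the control libraries and 153 to 199 CPM in the HRAS guide libraries. The highest of them was COL1A1, at a mean of 170 CPM. The 5 endothelial markers summed to 3.87 to 4.93 CPM in the control libraries and 3.76 to 4.24 CPM in the HRAS guide libraries. The part of these cell types in the members' values was not tested.

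ITGAE, whose product pairs with ITGB7 on T cells to bind E-cadherin, stood at 11.1, 12.9 and 10.2 CPM with the control guide and at 13.1, 13.5 and 15.1 CPM with the HRAS guide. All HRAS guide values were higher, by 0.29 ± 0.12 on the log2 scale (95% interval 0.01 to 0.56). It did not pass (edgeR unadjusted p = 0.044, adjusted p = 1.00), and the groups overlapped after the correction (0.27 ± 0.11, adjusted p = 0.806). Exons of ITGAE share 505 bp with genes on the opposite strand, HASPIN among them. ITGB7 itself stood at 1.28, 0.870 and 0.827 CPM against 1.01, 0.717 and 0.461 CPM (-0.47 ± 0.34). Of its 4481 bp of merged exons, 1886 bp overlap ZNF740 on the opposite strand.

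ITGA11, a collagen receptor subunit typical of fibroblasts, had the lowest log2 fold change of the family and few counts behind it. It stood at 0.623, 0.833 and 0.661 CPM with the control guide and at 0.443, 0.410 and 0.553 CPM with the HRAS guide. All HRAS guide values were lower, but at -0.58 ± 0.32 (95% interval -1.29 to 0.14) it did not pass. ITGB3, a partner of ITGAV and ITGA2B, had the highest log2 fold change, 0.31 ± 0.29, at 0.554, 0.797 and 0.694 CPM against 0.805, 0.990 and 0.738 CPM. Of its 4394 bp of merged exons, 2266 bp overlap another gene on the same strand. The remaining low members ITGA1, ITGA7, ITGA9, ITGA10 and LAMA2 ranged from -0.29 to 0.13 and overlapped between groups.

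The other 8 members were left out of the test by the filter on low counts: ITGA4, ITGA8, ITGAL, ITGAM, ITGAX, ITGAD, LAMB4 and LAMC3. Their highest count in any library was 7. Most of the integrin subunits among them are known from leukocytes. With the tested members, 12 of 18 integrin alpha, 8 of 8 integrin beta and 9 of 11 laminin genes were thus measured well enough to test.

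Levels of different genes were set side by side per kilobase of merged exon length, over all 6 libraries. ITGB4 was the highest at 304 ± 29.1 CPM per kb, followed by ITGA3 at 214 ± 19.4, LAMA5 at 146 ± 13.5 and LAMB3 at 109 ± 15.9 (SD, n = 6). ITGB1 at 85.9 ± 13.6, ITGA6 at 81.3 ± 13.8, LAMC1 at 61.6 ± 6.72 and LAMB1 at 47.9 ± 3.14 CPM per kb came next. LAMB3 and ITGB1 overlapped in their spreads, as did ITGB1 and ITGA6. Below a gap stood ITGA2 at 25.4 ± 5.17, ITGB6 at 24.4 ± 2.90 and LAMB2 at 21.6 ± 1.80, again with overlapping spreads, and then ITGB5 at 13.0 ± 0.52, LAMA3 at 12.4 ± 1.22 and ITGAV at 10.2 ± 2.21.

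On this scale LAMA3 stood below its partner chain LAMB3 in all 6 libraries (10.7 to 14.3 against 91.8 to 136 CPM per kb). The size of that gap depended on the length used: per kb of median transcript length the means were 100.4 for LAMA3 and 129.9 for LAMB3, and per kb of the longest transcript 17.1 and 119. The order of the family depended on it too. With the median transcript length LAMA5 came first, and with the longest transcript ITGA3 came first. The rank of LAMB3 was 4 by merged exons, 9 by median transcript length and 5 by longest transcript. Members below ITGAV that reached 20 CPM were LAMA1 (8.76 ± 0.56 CPM per kb), ITGB8 (7.26 ± 1.33), ITGA5 (7.19 ± 0.27) and LAMA4 (3.47 ± 0.19).

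The spread between libraries of a group followed the GC content of the members. Over the 18 members of at least 20 CPM, Spearman's rho between GC content and the deviation of a library from the mean of all 6 was -0.91 in control library 1 and 0.94 in control library 2, as a description across genes that share those libraries. In control library 3 it was -0.57, and in HRAS guide libraries 1 to 3 it was 0.80, -0.92 and -0.09. In control library 2 the members ran from -0.59 (ITGAV, GC content 38.2%) to 0.34 (LAMB3, 59.5%) on the log2 scale. The correction lowered the SD of these deviations from 0.185 to 0.068 in control library 1 and from 0.284 to 0.116 in control library 2, and left rho at -0.60 and 0.59. The trend among these genes was thus reduced but still present. How much of any member's difference between the guides comes from the trend was not tested.

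Genes that work with integrins and laminins were read from 6 lists, in which 0 genes passed in edgeR, in DESeq2 or after the correction. The 2 genes of smallest p in each list are given as values. Of the 6 hemidesmosome partners 5 had negative log2 fold changes (median -0.03). PLEC, the plectin that links ITGB4 to keratin, stood at 1465, 1969 and 1598 CPM against 1537, 1333 and 1489 CPM (-0.21 ± 0.11), and the basal keratin gene KRT14 had 0.11 ± 0.13. Among 11 tested genes of laminin processing and other laminin receptors 8 were negative (median -0.04), with the syndecan gene SDC4 at -0.14 ± 0.09 and the protease gene TLL2 at 0.25 ± 0.16.

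Of 15 tested basement membrane genes 9 were negative (median -0.02). The collagen IV gene COL4A4 had 0.68 ± 0.30, at 0.48, 0.58 and 0.53 CPM against 1.05, 0.82 and 0.71 CPM, and the matricellular gene SPARC had -0.73 ± 0.52, both under 2 CPM. Of 20 tested genes for other integrin ligands 17 were negative (median -0.06), where 50.5% of all genes were. VTN, which encodes vitronectin, had -0.60 ± 0.31, and CCN1, a matricellular ligand of ITGAV and ITGA6 integrins, stood at 100, 92.3 and 104 CPM against 91.7, 90.5 and 90.5 CPM (-0.12 ± 0.08).

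Of 15 tested genes for integrin activation and tail binding 12 were negative (median -0.03). TLN1, the talin that activates integrins from inside the cell, stood at 510, 494 and 484 CPM against 474, 456 and 461 CPM (-0.10 ± 0.07), and KRIT1 had 0.16 ± 0.11. Of 15 tested integrin signalling genes 9 were negative (median -0.06). The focal adhesion gene ZYX had -0.20 ± 0.12 and the kinase gene FYN -0.14 ± 0.09, the latter at 37.9, 37.1 and 36.9 CPM against 34.6, 34.0 and 33.0 CPM. Among the genes named from these lists, which were picked for their small p, the groups did not overlap for CCN1, FYN, TLN1 and VTN (lower) and for COL4A4 and TLL2 (higher). All had an adjusted p of 1.00 in edgeR.

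Over each whole list, the groups did not overlap in CPM for 3 of 20 ligand genes, for 1 gene in each of the laminin processing, basement membrane, activation and signalling lists, and for 0 of 6 hemidesmosome partners, where 8.81% of all genes did not overlap. On corrected CPM they did not overlap for 6 of 15 signalling genes (5 lower), 4 of 15 basement membrane genes (2 lower) and 2 of 6 hemidesmosome partners (both lower). The count was 2 of 15 for activation, 2 of 11 for laminin processing and 1 of 20 for ligands, where 12.3% of all genes did not overlap.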

How the data were processed

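RNA sequencing gave whole-number counts per gene, deposited by the authors without normalization in a table of 60664 rows, of which 1 had no values and 60663 were used. Per the submitters' processing notes HISAT2, StringTie, DESeq2 and hg38 were used. Counting tool, annotation release and strandedness: not given in the sources used here. Columns name FTO, and sample titles dCas13b alone. They were matched to libraries by guide and replicate number. Gene symbols matched 60462 identifiers. Coordinates, lengths, exon overlaps and GC content (median over transcripts) came from GENCODE release 29 on GRCh38.

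All 6 libraries entered each fit. Genes were filtered with filterByExpr (19836 left) and scaled by TMM. The test was the 2-sided quasi-likelihood F-test of edgeR 4.0.16 (R 4.3.3), with Benjamini-Hochberg adjustment over all tested genes and 0.05 as the threshold. A log2 fold change is the HRAS guide group minus the control group. SE and 95% intervals come from the F statistic.

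For the GC and length correction, log2 CPM (prior count 2) minus the average over libraries was regressed in each library on GC content (spline, 5 degrees of freedom) and log10 transcript length (spline, 4), robustly (MASS), over 14007 genes averaging more than 1 log2 CPM. The fits became edgeR offsets for 19489 genes. DESeq2 1.42.0 (independent filtering off), limma-voom (limma 3.58.1), other size factors and filters, a replicate block, a covariate for the sign of the GC trend, and each library left out in turn were alternatives. The longest transcript as length, differences within sets of libraries of 1 trend sign and ratios between genes were added after seeing the data.

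The members, partner lists and tests were chosen with earlier results of these data known. 1 gene of the set as first drawn up is not reported here and enters no count of members. Named are the 4 genes set apart, members past the threshold in edgeR, DESeq2 or after the correction, members of at least 20 CPM, examples of the rest, and from each partner list the 2 genes of smallest p where none passed. The scripts were tested on simulated data. Depth was 24968702 to 32283370 counts per library, and intervals on folds reflect the spread between 3 libraries per group.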

Additional observations from a re-analysis of the deposited data

How the results depend on the processing

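Over all genes, edgeR called 2. DESeq2 called 25, the fit without a filter 57, the GC and length correction 39 and the GC trend covariate 81. Limma-voom, DESeq2 size factors and the filter of 1 CPM in 3 libraries called 1 each. Leaving out a library gave 1 to 129. Of the members, 0 were called in edgeR and 1, LAMB3, with the correction or the covariate, and leaving out a library gave 0 to 1. LAMB3 kept a negative log2 fold change in each alternative listed, from -0.46 to -0.23.

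Whether the replicate numbers pair the libraries is not known. The deviations of same-numbered libraries from their group means correlated at -0.544, -0.664 and -0.137, and 0 of 3 numbers matched best with their own. Same-numbered libraries had GC trends of opposite sign, so these correlations cannot show whether the libraries were paired. With a replicate block edgeR called 1 gene and 0 members, with LAMB3 at -0.32 (adjusted p = 1.00). With the replicate block and the correction it called 5 genes and 0 members, with LAMB3 at -0.28 (adjusted p = 0.675).

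Small log2 fold changes, none past the threshold, changed sign under some settings. With limma-voom ITGA2 was 0.027, ITGB8 0.018, LAMA5 0.0034 and LAMC1 0.0090. With library totals alone ITGA2 was 0.012, ITGB8 0.0048, LAMA5 0.023, LAMB1 0.0065 and LAMC1 0.0202. With the replicate block ITGA2 was 0.025, ITGB8 0.017, LAMA5 0.0036 and LAMC1 0.0087. With the correction ITGA2 was 0.0076, ITGA6 -0.0058 and LAMA5 0.035, and with the block added ITGA2 was 0.017 and LAMA5 0.036. With the GC trend covariate ITGA2 was 0.19, ITGB1 0.14, ITGB8 0.15, LAMA3 0.036, LAMB1 0.0403, LAMB2 -0.0043 and LAMC1 0.10. Within the libraries of positive trend LAMA3 was 0.14, and within those of negative trend ITGA6 was -0.0057. The cause was not tested.

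Leaving out each library in turn, with and without the correction, moved ITGA2 from -0.21 to 0.21, ITGA3 from -0.16 to 0.016, ITGA5 from -0.074 to 0.0058, ITGA6 from -0.17 to 0.16, ITGAV from -0.18 to 0.25, ITGB1 from -0.19 to 0.11, ITGB6 from -0.082 to 0.13 and ITGB8 from -0.20 to 0.19. Among laminins it moved LAMA1 from -0.0899 to 0.014, LAMA3 from -0.15 to 0.045, LAMA4 from -0.031 to 0.083, LAMA5 from -0.082 to 0.10, LAMB1 from -0.094 to 0.038, LAMB2 from -0.034 to 0.15 and LAMC1 from -0.11 to 0.11.

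Pairs of libraries differed beyond counting error over all genes (chi-square per degree of freedom 3.19 to 43.6). For members under 1 CPM few counts widen the intervals, as for ITGA9 (-1.30 to 1.17). Every interval rests on 3 libraries per group.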
